A study of Gallus gallus with 25 samples.

Results

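The microRNA miR-140 was followed in the developing gonads of male and female chicken embryos through the 5 array probes named for it, out of 657 mature miRNA names on the array. They were taken by name, and this set was chosen with earlier results of these data known. The probes gga-miR-140 (chicken) and dre-miR-140 (zebrafish) stand for the mature strand. The star strand is read by dre-miR-140*, mmu-miR-140* (mouse) and rno-miR-140* (rat). The star-strand probes gave the brighter and more variable signal, and the mature-strand probes stayed at or close to background. No sex difference in the star strand passed the test, and the mature strand was too dim to test. Only the dre-miR-140* probe of the star strand passed, in 1 comparison, which rests on a single bright female array of embryonic day 6.5. The mouse and rat star-strand probes did not pass in it, and the call was lost in several other settings. In normalised values the zebrafish mature-strand probe read slightly higher at day 9.5 than before it, close to background.

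Small RNA had been extracted from gonads pooled by sex at embryonic day 5.5 (E5.5, Hamburger-Hamilton stages 27 to 28), E6.5 (stages 29 to 30) and E9.5 (stages 35 to 36). No strain, treatment or genetic change is given for any group. The younger embryos were sexed by PCR and those of E9.5 by eye. Each of the 25 arrays measured 1 pool with 1 dye, Cy5, which attaches to guanine. Of these, 18 bear the chip number 4011845. Its male groups hold 3 arrays of E5.5, 3 of E6.5 and 4 of E9.5, and its female groups 3, 1 and 4 in the same order. The other 7 bear the number 50636 and hold no E9.5 array: 2 male and 1 female arrays are of E5.5, and 2 male and 2 female ones of E6.5. The submitters count the arrays as biological replicates, but no label says whether replicates 1-1 and 1-2 came from 1 pool. The p-values thus rest on the spread among these arrays, which may be partly technical. In pooled tissue, fewer cells of a type and less RNA per cell cannot be told apart.

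A miRNA is cut from a hairpin as a duplex, and either strand can be loaded into an Argonaute protein, where bases 2 to 8, the seed, choose the messenger RNAs it represses. The strand found less often when the names were given is called the star strand. For miR-140 the strand named mature comes from the 5′ arm and the star strand from the 3′ arm, and the star strand is often the more abundant in later sequencing. MiR-140 is best known from cartilage, where the chondrocyte factor SOX9 drives it, and in mouse it has also been studied in the fetal testis. In the RefSeq gene table of the GRCg7b assembly, chicken MIR140 lies within the span of WWP2, a ubiquitin ligase gene. Exon and intron bounds were not used here.

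The sequences below show what separates the 5 probes. Each line is the RNA that would pair with the probe base for base, derived from the deposited probe sequence and written 5′ to 3′ with the seed in capitals.
dre-miR-140*: uACCACAGgguagaaccacggac
mmu-miR-140*: uACCACAGgguagaaccacgga
rno-miR-140*: uACCACAGgguagaaccacggaca
gga-miR-140: aGUGGUUUuacccuaugguag
dre-miR-140: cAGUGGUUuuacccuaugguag
The 3 star-strand targets are nested. They share their 5′ end and the seed ACCACAG and differ by 1 base each at the 3′ end, at 22, 23 and 24 bases. Their readings come from separate spots but cannot separate one length of RNA from another, and they are not independent measures. The 2 mature-strand targets differ at the other end: dre-miR-140 carries 1 more base at its 5′ end, so its seed is AGUGGUU and that of gga-miR-140 is GUGGUUU. No other mature probe on the array has any of these 3 seeds. All 5 targets hold 6 guanines, against a median of 5 over the 657. The listed melting temperature is 61.05 to 63.96 for the star-strand probes, 52.51 for gga-miR-140 and 54.3 for dre-miR-140 (degrees Celsius presumed, the unit not being stated). The star-strand probes have 1 spot each on an array and the mature-strand probes have 2.

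Each probe has a partner with 2 altered bases, which gives a reading of unspecific binding. The lines below give the probe (DNA, 5′ to 3′) for dre-miR-140* and then its partner, and the same for dre-miR-140, with the altered bases in capitals.
dre-miR-140* probe: gtccgtggttctaccctgtggta
dre-miR-140* partner: gtccgtTgttctacActgtggta
dre-miR-140 probe: ctaccatagggtaaaaccactg
dre-miR-140 partner: ctaccatagAgtaaaaGcactg
Counted from the 5′ end of the probe, the changes are G7T and C15A for dre-miR-140*, and G10A and C17G for dre-miR-140. A probe named for another species reads whatever chicken RNA binds it.

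The values described first are those of chip 4011845, normalised alone. Median foreground intensity ran from 74.5 to 207 on its arrays, and 51 to 177 of the 657 mature probes exceeded the detection limit, set at the 95th percentile of 7 negative controls for that array. The perfect match was brighter than its partner for 94 to 100 of the 100 pairs with the most signal here and for 77 to 86 on chip 50636. Scan exposure differed between arrays, from 0.5 to 2 s on chip 4011845. The gonad miRNA miR-202 was above the limit on 16 of 18 arrays with the dre-miR-202 probe and on 14 with gga-miR-202. Its other probes were seldom above it: mmu-miR-202 on 3 arrays, hsa-miR-202 on 2 and gga-miR-202* on 0. None of the 9 skeletal muscle probes, neither of the 2 liver probes and neither of the 2 miR-455 probes, the other cartilage marker, reached the limit on any array. Against the highest of the 6 dimmer negative controls, a lower limit chosen after seeing the data, gga-miR-455 was above background on 12 of 18 arrays, each liver probe on 10, and the muscle probes on 0 to 9. Differences were tested with limma over the 163 mature probes above the limit on at least 3 arrays, with Benjamini-Hochberg adjusted p-values under 0.05 called. The 3 star-strand probes were tested and the 2 mature-strand probes were too dim.

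The star strand was read well above background on this chip. The dre-miR-140* probe exceeded the limit on 18 of 18 arrays and lay between the percentiles 90.8 and 99.5 of mature probes. Its foreground was 2.30 to 7.72 times that of its mismatch partner, with a median of 4.36. The mmu-miR-140* probe exceeded the limit on 17 of 18 arrays and its partner 1.69 to 2.93 times, on the 17 arrays where the partner spot was kept. The rno-miR-140* probe exceeded the limit on 15 of 18 arrays. It read only 1.06 times its partner on Male E5.5 replicate 3 and 1.04 times on Female E9.5 replicate 1-2, where dre-miR-140* still read 2.92 and 2.30 times its own. Both arrays lie in sector 1 of their slide and were scanned for 2 s, and the part these play was not tested. The mature strand differed: gga-miR-140 read 0.96 to 1.18 times its partner and dre-miR-140 0.93 to 1.30 times, and both were under the limit on all 18 arrays.

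**Figure D1:**
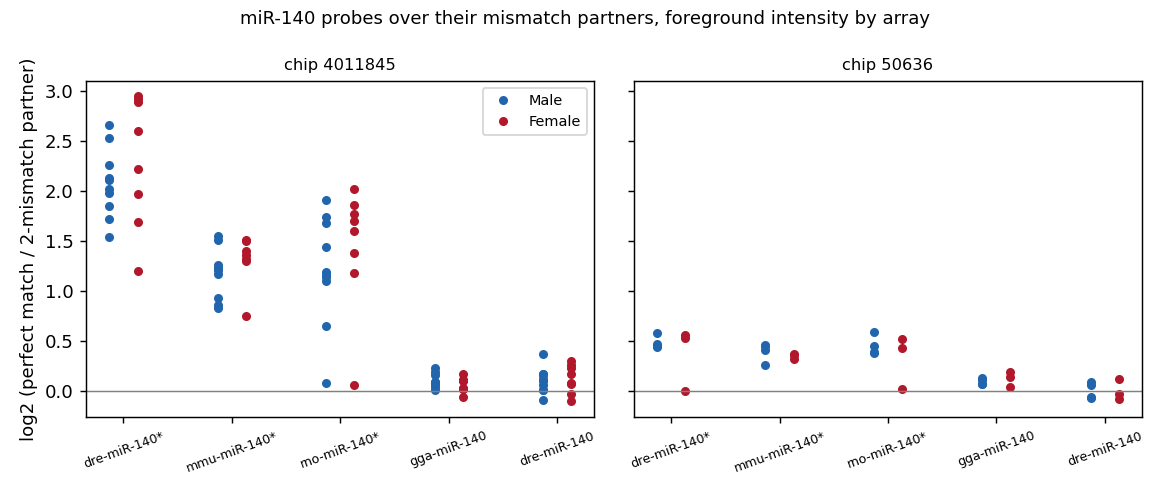
Log2 ratio of the foreground intensity of each miR-140 probe to that of its 2-mismatch partner (vertical axis), 1 point per array, with males in blue and females in red, for chip 4011845 (left) and chip 50636 (right). On chip 4011845 the dre-miR-140* probe was 2.30 to 7.72 times as bright as its partner, and the mature-strand probes lay near 0 on both chips.

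Normalised log2 intensity of dre-miR-140* was 9.95, 8.03 and 8.96 on the 3 male E5.5 arrays and 9.68, 8.69 and 9.45 on the 3 female ones. At E6.5 it was 9.79, 8.17 and 8.80 in males and 10.65 on the single female array. At E9.5 it was 8.73, 8.74, 8.74 and 8.92 in males and 8.54, 8.10, 9.27 and 8.30 in females. For this probe the female E6.5 array stood above every other array, and the sexes overlapped at E5.5 and at E9.5. At E6.5 they did not overlap, as held for 46.6% of tested probes against that single array. The mmu-miR-140* probe was higher on Male E5.5 replicate 2 (8.89) than on the female E6.5 array (8.69). For rno-miR-140* these arrays read 9.305 and 9.306. The male arrays of E5.5 and of E6.5 were widely spread for dre-miR-140*, whereas the 4 of E9.5 lay close together. Replicate 2 was the highest array in male E5.5, male E6.5 and female E9.5, and the female E6.5 array is also a replicate 2. What a shared number stands for is not stated in the labels. Values with the number as a block stand beside a female and a male result below and among the alternatives in the closing section.

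The comparison of the sexes asked whether miR-140 differs between the future testis and ovary before (E5.5), at (E6.5) and after (E9.5) the onset of differentiation. At E5.5 the male mean of dre-miR-140* was 8.98 ± 0.96 (SD, n = 3) and the female mean 9.27 ± 0.52 (SD, n = 3). The difference, male minus female, was -0.29 ± 0.46 (SE, limma adjusted p = 0.918), with a 95% interval from -1.25 to 0.67. At E9.5 the means were 8.78 ± 0.09 (SD, n = 4) and 8.55 ± 0.51 (SD, n = 4), and they differed by 0.23 ± 0.39 (SE, limma adjusted p = 0.895) with an interval from -0.60 to 1.06. At E6.5 the 3 male arrays averaged 8.92 ± 0.82 (SD, n = 3) against the single female array, and the difference was -1.73 ± 0.64 (SE, limma adjusted p = 0.377). The median of all tested probes in that comparison was itself 0.25, in the opposite direction. The 95% interval of dre-miR-140* there ran from -3.09 to -0.37. It leaves out 0, is not adjusted for the number of probes, and takes its spread from the other groups. The other star-strand probes gave -0.30 (mmu) and -0.99 (rno) at E5.5, -0.997 and -1.10 at E6.5, and 0.20 and 0.35 at E9.5, none of them called. None of the 163 probes (0%) was called in any of the 3 sex comparisons, with 3, 10 and 11 probes at an unadjusted p under 0.05 at E5.5, E6.5 and E9.5.

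The change of the sex difference from E5.5 to E9.5 was tested in the same model. It was 0.52 ± 0.60 for dre-miR-140*, 0.50 ± 0.50 for mmu-miR-140* and 1.34 ± 0.88 for rno-miR-140* (SE, limma adjusted p = 0.989 for each). No probe of the 163 (0%) was called for this change, and 3 had an unadjusted p under 0.05.

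**Figure D2:**
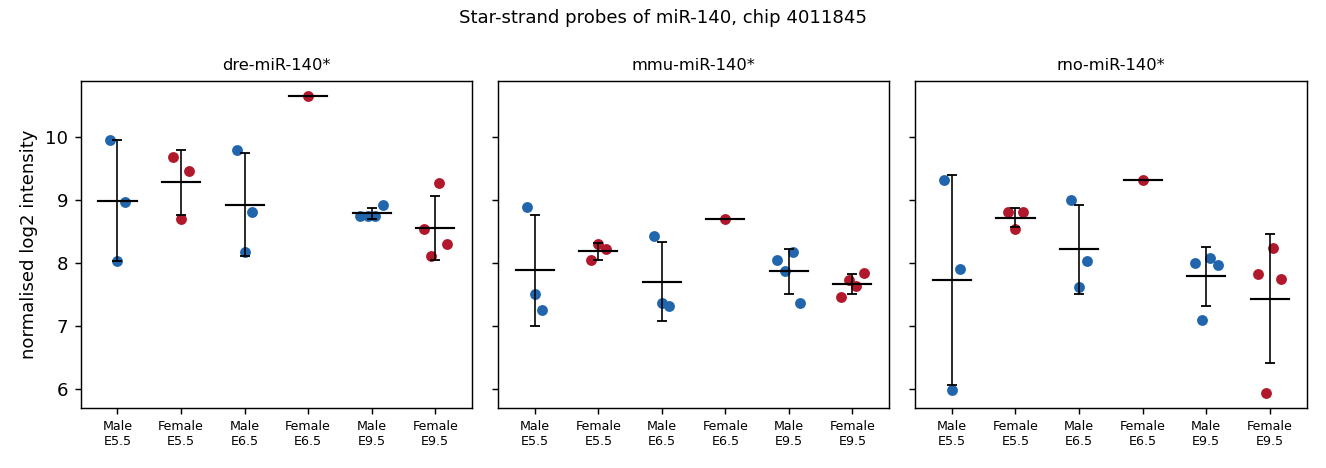
Normalised log2 intensity (vertical axis) of the 3 star-strand probes on each of the 18 arrays of chip 4011845 by sex and stage, with males in blue and females in red, and bars for the group mean and SD. The single female E6.5 array is the highest point for dre-miR-140*, at 10.65, and 2 arrays at about 6 stand apart for rno-miR-140*.

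Across stages in females, dre-miR-140* fell between E6.5 and E9.5, with the E6.5 group held by 1 array. A single array has no spread of its own, so every SE and p-value involving this group uses the spread of the other groups. For dre-miR-140* the SD of those groups ran from 0.09 (male E9.5) to 0.96 (male E5.5). That the single array varies as they do is assumed and cannot be checked. That array also had the highest median foreground on the chip (207, the next being 152.5) and the highest detection limit (382.55, the next being 296.85), and their part in the result was not tested. The value went from 10.65 on the single E6.5 array to a mean of 8.55 ± 0.51 (SD, n = 4), or -2.10 ± 0.62 (SE, limma adjusted p = 0.0475), 4.27-fold lower, in a comparison with 9.2% of tested probes called and a median of 0.27 over all of them. All 4 E9.5 arrays were below the E6.5 array. Against that 1 array the groups did not overlap, in one direction or the other, for 68.5% of tested probes. Without it, in a fit of all 25 arrays with a term for the chip, the difference was -0.59 (limma adjusted p = 0.428). There the group is held by 2 arrays of chip 50636, on which the probe was under the limit, so this value is no check of the brightness of the array left out. The call was also lost with the replicate number as a block (-1.41, limma adjusted p = 0.222). The same comparison gave -1.03 ± 0.51 for mmu-miR-140* and -1.88 ± 0.91 for rno-miR-140* (SE, limma adjusted p = 0.169 and 0.162).

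From E5.5 to E9.5 in females, where both groups have at least 3 arrays, the 3 star-strand probes gave negative differences that did not pass. For dre-miR-140* the value was -0.72 ± 0.43 (SE, limma adjusted p = 0.243). The mmu-miR-140* probe read 8.03, 8.30 and 8.21 at E5.5 and 7.46, 7.72, 7.64 and 7.84 at E9.5. Its groups did not overlap, and it differed by -0.52 ± 0.35 (SE, limma adjusted p = 0.317). The rno-miR-140* probe read 8.81, 8.54 and 8.80 at E5.5 and 7.81, 5.93, 8.22 and 7.75 at E9.5. Its groups did not overlap either, and it differed by -1.29 ± 0.62 (SE, limma adjusted p = 0.173). It passed with log2 scan exposure as a covariate (-1.78, limma adjusted p = 0.0210). Here 7.98% of tested probes were called, and for 38.3% the groups did not overlap. From E5.5 to E6.5 in females, dre-miR-140* differed by 1.37 ± 0.64 (SE, limma adjusted p = 0.754), again resting on the single array. That comparison called 0% of probes, 6 had an unadjusted p under 0.05, and its median over tested probes was -0.27.

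In males the star strand gave no call at any step. The E6.5 group differed from E5.5 by -0.06 ± 0.46 for dre-miR-140* (SE, limma adjusted p = 1.000), where 0% of probes were called and 3 had an unadjusted p under 0.05. Both of these groups hold replicates 2, 3 and 6, which read 9.95, 8.03 and 8.96 at E5.5 and 9.79, 8.17 and 8.80 at E6.5. With the replicate number as a block this difference was -0.06 ± 0.34 (SE), but the labels do not say that equal numbers are pairs. Between E6.5 and E9.5 dre-miR-140* differed by -0.14 ± 0.43 (SE, limma adjusted p = 0.946), with 1.23% of probes called. From E5.5 to E9.5 it differed by -0.20 ± 0.43 (SE, limma adjusted p = 0.831, 95% interval from -1.10 to 0.70), with 6.75% called. Over these 3 steps the mmu-miR-140* probe gave -0.18, 0.16 and -0.02, and the rno-miR-140* probe 0.48, -0.43 and 0.06. The stage comparisons share arrays with each other, so their values are not independent.

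**Figure D3:**
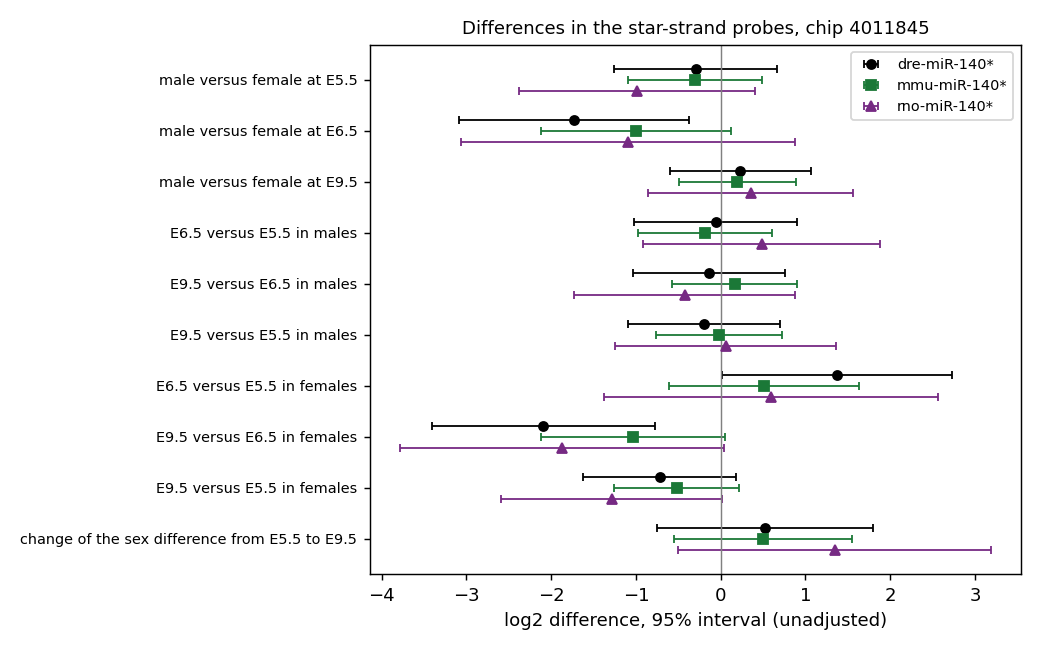
Log2 differences (horizontal axis) of the 3 star-strand probes in 10 comparisons on chip 4011845, with 95% intervals that are not adjusted for the number of probes. In the comparison of E9.5 with E6.5 in females the dre-miR-140* probe lies at -2.10, and the intervals for the sexes at E5.5 and E9.5 and for every step in males include 0. In each comparison with the single female E6.5 array the dre-miR-140* interval leaves out 0. It is -3.09 to -0.37 for the sexes at E6.5 and 0.015 to 2.73 for E6.5 against E5.5 in females. The intervals of the other star-strand probes include 0 in these comparisons.

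The mature-strand probe of the chicken sequence, gga-miR-140, was nearly flat. Its foreground was 74.5 to 211 and lay between the percentiles 11.0 and 48.9 of mature probes. Its group means of normalised log2 intensity at E5.5 were 5.96 ± 0.10 for males and 5.96 ± 0.11 for females (SD, n = 3 each). At E9.5 they were 6.01 ± 0.07 and 6.07 ± 0.04 (SD, n = 4 each). Since it was at background in every group, no fold is given and nothing about a difference between sexes or stages can be read from it at this sensitivity.

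The zebrafish mature-strand probe, dre-miR-140, with 1 more base at the 5′ end of its target, gave a low signal that was higher at E9.5 in normalised values. Its unnormalised foreground, both sexes together, was 87 to 198.5 (median 123.5) at E9.5 and 95.5 to 226.25 (median 140.25) before. Exposure differed between these arrays. Its normalised log2 intensity was 6.01, 6.29 and 6.09 in males and 6.09, 6.20 and 6.00 in females at E5.5, and 6.01, 6.11 and 6.21 in males and 6.32 in the female at E6.5. At E9.5 it was 6.39, 6.70, 6.45 and 6.24 in males and 6.40, 6.68, 6.44 and 6.34 in females. The female E9.5 arrays were all above the female E5.5 arrays, and the male E9.5 arrays overlapped those of E5.5 but not those of E6.5. Among the 163 tested probes, groups did not overlap for 38.3% in the first of these comparisons and 10.6% in the last. The probe exceeded its mismatch partner on 8 of 8 arrays at E9.5 and on 7 of 10 before. The narrowest of the E9.5 margins was a foreground of 87 against 86 on Male E9.5 replicate 3. The gga-miR-140 probe, at background, exceeded its own partner on 7 of 8 arrays at E9.5 and on 10 of 10 before. This count thus does not set signal apart from background.

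The limit moves with the brightest negative control. Against the highest of the 6 dimmer controls, dre-miR-140 was above background on 8 of 8 E9.5 arrays and on 2 of 10 earlier ones. The gga-miR-140 probe was above it on 0 of 18. Detection also ran higher at E9.5 over all mature probes. Against the 95th percentile limit, 87 to 177 of them passed on E9.5 arrays and 51 to 138 on earlier ones. The limit from the 6 dimmer controls was itself often lower at E9.5, with overlap. How many of all probes passed it by stage was not counted, so the counts for dre-miR-140 are not set apart from this shift. With the limit from the 6 dimmer controls, dre-miR-140 enters the test only through the E9.5 arrays, where it is high. Its stage differences are thus given as a description with no test. The E9.5 mean was 0.37 above that of E5.5 in females, 0.31 above it in males, and 0.34 above that of E6.5 in males. Male minus female at E9.5 was -0.02, likewise a description with no test. The summed markers of blood and of mesenchyme also ran higher at E9.5, those of blood with some overlap in males. Each probe in a sum adds a floor even without signal: the 9 skeletal muscle probes, never above the limit, summed to 576 to 709. Ratios between such sums are thus no folds. Of 4 red blood cell probes, the 2 of miR-451 were tested and the 2 of miR-144 never reached the limit, and their summed normalised intensity was 284 to 641 on the 10 earlier arrays, 560 to 1026 in males and 854 to 1664 in females at E9.5. The 9 mesenchyme and smooth muscle probes, 8 of them tested, summed to 1648 to 2547 on the earlier arrays, 4263 to 5778 in males and 2966 to 4490 in females at E9.5. Within that list dre-miR-214 gave -0.81 in females and 0.17 in males from E5.5 to E9.5, both uncalled. The tested miR-199 and miR-145 probes gave positive values in both sexes over that step. The part of these markers in the dre-miR-140 values was not tested. The dre-miR-140 differences are between normalised values close to background. Over both sexes its unnormalised foreground was not higher at E9.5 (median 123.5, against 140.25 before). The size and direction of any change in the RNA thus cannot be set.

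**Figure D4:**
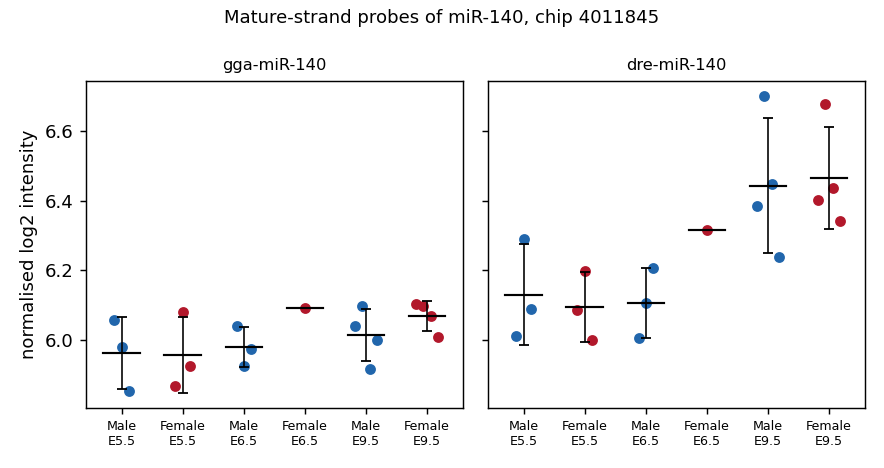
Normalised log2 intensity (vertical axis, which does not start at 0) of the 2 mature-strand probes on the 18 arrays of chip 4011845, with males in blue, females in red, and bars for the group mean and SD. The dre-miR-140 points at E9.5 run from 6.24 to 6.70 and those before E9.5 from 6.00 to 6.32, and gga-miR-140 stays between 5.85 and 6.10.

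The strands were then set against each other within each array, as log2 dre-miR-140* minus log2 gga-miR-140. The level of this difference compares 2 probes of unlike melting temperature and is no measure of strand abundance, and gga-miR-140 was at background, so only its course over groups is described, with no test. It had a median of 3.10 (range 2.05 to 3.90) in males and 3.53 (2.61 to 3.81) in females at E5.5. At E6.5 the male median was 2.83 (2.24 to 3.75) and the single female array gave 4.56. At E9.5 it was 2.76 (2.64 to 2.92) in males and 2.37 (2.00 to 3.20) in females. The ranges of both sexes at E9.5 overlapped those of the same sex at E5.5. In males the direction of the median from E5.5 to E9.5 depends on which star-strand probe is used, as given in the closing section. Over the 18 arrays gga-miR-140 itself stayed between 5.85 and 6.10, and dre-miR-140* ran from 8.03 to 10.65. On the array 29 pairs of names hold both strands of a miRNA of 1 species, but only 1 of them, hsa-miR-373 and hsa-miR-373*, had both strands tested. From E5.5 to E9.5 in females its star minus mature difference changed by -0.78, beside -0.83 for dre-miR-140* and gga-miR-140, and in males by -0.61 beside -0.25. Both probes of that pair are named for human sequences, and what chicken RNA they read was not tested.

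**Figure D5:**
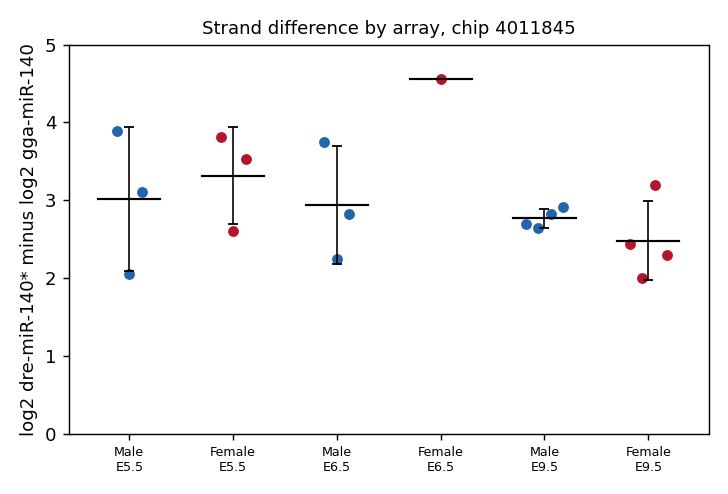
Log2 dre-miR-140* minus log2 gga-miR-140 (vertical axis) on each array of chip 4011845 by sex and stage, with males in blue, females in red, and bars for the group mean and SD. The values lie between 2.00 and 3.90 apart from the single female E6.5 array at 4.56.

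On chip 50636 the same probes gave little signal. The dre-miR-140* foreground was 108 to 470, under the limit on all 7 arrays and above the highest of the 6 dimmer negative controls on all 7. It read 1.00 to 1.50 times its mismatch partner, the lowest being 470 against 469.5 on Female E5.5 replicate 1-2. The mmu-miR-140* probe exceeded the limit on 1 of 7 arrays and rno-miR-140* on none, and both mature-strand probes were under it throughout. The highest of the 6 dimmer controls was exceeded by mmu-miR-140* on 7 of 7 arrays, rno-miR-140* on 6, gga-miR-140 on 3 and dre-miR-140 on 1. Passing that lower limit on this chip thus does not by itself set signal apart from background. Normalised within this chip, dre-miR-140* was 6.98 and 6.82 in males and 6.24 in the female at E5.5, and 6.71 and 6.66 in males and 6.81 and 6.79 in females at E6.5. Neither the brightness of the female E6.5 array of chip 4011845 nor any other order of the groups can be checked at that signal.

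Among tested probes outside the miR-140 names, those most like dre-miR-140* over the 18 arrays were mmu-miR-124a (Pearson r = 0.91), gga_candidate_dre_130c-1, a probe for a candidate chicken miRNA, (r = 0.88), mmu-miR-494 (r = 0.88), hsa-miR-519e* (r = 0.86) and dre-miR-124 (r = 0.86). The points share arrays, exposure and groups, and r is a description. What chicken RNA is read by the probes named for other species was not tested. The star-strand probes correlated with each other at 0.63 to 0.84. With gga-miR-140 the nearest were gga-miR-24 (r = 0.63), hsa-miR-22 (0.50), gga-let-7a (0.49), hsa-miR-23a (0.49) and mmu-let-7a (0.48), and dre-miR-140* itself reached 0.05. The correlation of dre-miR-140 with dre-miR-140* was -0.43. As gga-miR-140 was at background and dre-miR-140 close to it, r with either of them cannot be read as shared expression.

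MiR-124 is a neuronal miRNA, so the neural markers are given beside the star strand. Of 5 neural probes, the 3 of miR-124 were tested and the 2 of miR-9 never reached the limit. Their sum holds a floor, as for the other markers. The summed normalised intensity of the 5 was 578 to 1171 in male and 828 to 1387 in female E5.5 arrays, 560 to 1067 in male E6.5 arrays, 2048 on the female E6.5 array, and 570 to 838 in male and 521 to 974 in female E9.5 arrays. The array highest for dre-miR-140* was thus also the highest for these probes, and the part of this in the star-strand result was not tested.

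Other miRNAs of skeletal and connective tissue were listed from general knowledge: miR-455, miR-145, miR-101, miR-199, miR-214, miR-365 and miR-27b. The list was chosen with earlier results of these data known, so its counts and medians beside those of all probes are a description only. Of their 15 probes, 6 were tested: dre-miR-199*, gga-miR-199a, mmu-miR-199b, dre-miR-145, hsa-miR-145 and dre-miR-214. No probe of miR-455, miR-101, miR-365 or miR-27b was tested. The counts below are thus of probes, several of them for the same miRNA, and not of separate miRNAs. From E5.5 to E9.5 in males, where 6.75% of all tested probes were called, 3 of the 6 rose and none fell, with a list median of 1.34 beside 0.04 over all tested probes. The dre-miR-199* probe, for a fibroblast and mesenchyme miRNA, rose by 1.90 ± 0.26, gga-miR-199a by 1.84 ± 0.28 and hsa-miR-145, a smooth muscle miRNA, by 1.38 ± 0.35 (SE, limma adjusted p = 0.000254, 0.000358 and 0.0158). In females, where 7.98% were called, 2 of the 6 rose, dre-miR-199* by 1.24 ± 0.26 and gga-miR-199a by 1.00 ± 0.28 (SE), with a list median of 0.88 beside -0.05. The call of gga-miR-199a in females was lost without Female E5.5 replicate 3 (limma adjusted p = 0.189) and that of hsa-miR-145 in males without Male E5.5 replicate 2 (limma adjusted p = 0.120), among other settings. The dre-miR-214 probe gave 0.17 in males and -0.81 in females over the same step, uncalled. Between E6.5 and E9.5 in females it fell by 1.95 (limma adjusted p = 0.0475), as dre-miR-140* did, against the same single array and with 9.2% called, while dre-miR-199* rose by 1.60. Without that array, in the fit of all 25, neither passed (dre-miR-214 at -0.88, limma adjusted p = 0.212, and dre-miR-199* at 0.80, limma adjusted p = 0.100), but there the 2 arrays of chip 50636 hold the group and are no check of the array left out. Between E6.5 and E9.5 in males, where 1.23% were called, 2 of the 6 rose, dre-miR-199* by 1.40 and gga-miR-199a by 1.39, and neither passed without Male E6.5 replicate 2 (limma adjusted p = 0.0938 and 0.0972). In the sex comparisons, the E6.5 to E5.5 steps and the change of the sex difference none of the 6 was called.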

How the data were processed

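The authors deposited scanner output for 25 arrays, from which the median foreground intensity was taken, and a table of processed intensity values. On each array the latter correlated with the former at r = 1 over the rows where both hold a value. There it is a linear rescaling whose constants are not given in the sources used here. It also lacks values: of the 5 members it holds from 0 (Female E5.5 replicate 1-2) to 4 (Male E9.5 replicate 1-2) on an array. The alternative with the series table thus rests on fewer values. The scanner tables hold no background values that were used here. Excluded spots were left out, and all columns matched a sample. The dye binds guanine, per the labels' protocols, so G-rich targets take up more of it. The maker and the scanning software are not given in the sources used here.

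From the 657 mature probes, foreground was corrected with normexp (offset 50, over all spots of an array), put on the log2 scale and quantile-normalised over the 18 arrays of chip 4011845, in limma 3.58.1 (R 4.3.3). A probe was tested if above the 95th percentile of 7 negative controls in at least 3 arrays (163 probes). One limma model held 6 group means and a spread pooled over the groups, which the single female E6.5 array is assumed to share. P-values were Benjamini-Hochberg adjusted within a comparison over all tested probes, at a threshold of 0.05. The procedure was run on simulated data with independent noise and a step between female E5.5 and E9.5. That run is no check of results that rest on the single female E6.5 array, nor of arrays that vary together by replicate number. The members and all lists were chosen with earlier results of these data known. Named probes were the 5 members, the 5 most correlated with each of dre-miR-140* and gga-miR-140, the tested skeletal probes and the markers. Alternatives were all 25 arrays with a chip term, chip 50636 alone, only the compared groups, no background correction, 75th percentile scaling, no filter, the series table, the replicate number, exposure or sector in the model, merged 1-1 and 1-2, and leaving out each array.

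Same-numbered arrays deviated together between the sexes at E9.5 (4 pairs, r from 0.14 to 0.44) and between male E5.5 and E6.5 (3 pairs, r from 0.33 to 0.76). Over the other group pairs r ran from -0.25 (female E5.5 and E9.5) to 0.62 (male E5.5 and female E9.5, replicate 2). The main model held no pairing, and the replicate number entered only as a block among the alternatives. Any pairing is read from the data and not from the labels. Array number and spots per probe (1 or 2) limit the precision.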

Additional observations from a re-analysis of the deposited data

Results flagged for a closer look

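At E9.5 in males 2 star-strand probes each had 1 array far from the other 3. For dre-miR-140*, Male E9.5 replicate 3 read 8.92 and the others 8.73 to 8.74, so the gap was 0.988 of the range of the group, although that range is small. For rno-miR-140*, Male E9.5 replicate 1-2 read 7.09 and the others 7.97 to 8.08, a gap of 0.888 of the range. Chance alone flags about 1 in 20 groups, and 10 groups (5 probes in 2 groups) were examined.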

How the results depend on the processing

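The 1 call, dre-miR-140* between E6.5 and E9.5 in females (-2.10), was lost with 75th percentile scaling (-2.40), no filter (-2.10), the series table (-2.36), the replicate block (-1.41), sector as a block (-1.86), 1-1 and 1-2 averaged (-2.02), the limit from the 6 dimmer controls (-2.10) and all 25 arrays less Female E6.5 replicate 2 (-0.59), where the group is held by 2 arrays on which the probe was under the limit. The last 2 settings were chosen after seeing the data. The call held with all 25 arrays and a chip term (-1.25), the compared groups alone, no background correction and exposure. Leaving out each female E9.5 array gave -2.33 to -1.95, and the call was lost without 1-1, 1-2 or 3. The replicate block changed no other call of a miR-140 probe, although it moved dre-miR-140* and rno-miR-140* to -1.20 and -1.74 for male against female at E5.5 (limma adjusted p = 0.439 for both), to -1.53 and -1.64 for E9.5 against E5.5 in females (0.0829 and 0.186) and to 1.43 and 2.09 for the change of the sex difference (0.482 and 0.456). It ended the calls of dre-miR-199* and dre-miR-214 between E6.5 and E9.5 in females. From E5.5 to E9.5, the calls of dre-miR-199* in both sexes and of gga-miR-199a in males held in every setting run. The causes were not tested. The rno-miR-140* call with exposure is given above. The comparison that holds the dre-miR-140* call had 15 probes called, against 0 with 75th percentile scaling or the block and 44 with all 25 arrays. The other counts ran from 7 to 34 for E9.5 against E5.5 in females, 6 to 28 in males, and 0 to 10 for E9.5 against E6.5 in males. Between the sexes they ran from 0 to 13 at E6.5 and 0 to 3 at E9.5, and for E6.5 against E5.5 in females from 0 to 12. Chip 50636 alone, where no miR-140 probe was tested, is left out of these ranges and had 18 calls between the sexes at E5.5, 3 at E6.5, 36 for E6.5 against E5.5 in females and 0 in males.

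Sign turned in 18 results, none of them called, and the causes were not tested. For dre-miR-140* these were male against female at E5.5 (0.051 with the chip term, 0.32 with sector), E6.5 against E5.5 in males (0.021 with 75th percentile scaling, 1.5e-05 with the series table), E9.5 against E6.5 in males (0.12 with exposure), E6.5 against E5.5 in females (-0.11 with the replicate block) and the change of the sex difference (-0.015 with sector). For mmu-miR-140*, E9.5 against E5.5 in males came to 0.024 with 75th percentile scaling, 0.28 with the series table and 0.078 with sector. Its E6.5 against E5.5 value was 0.0064 in males with sector, and in females -0.10 with the replicate block and -0.25 with 25 arrays less Female E6.5 replicate 2. Its E9.5 against E6.5 value in males was -0.10 with the replicate block. For rno-miR-140*, E9.5 against E5.5 in males came to -0.22 with the chip term, -0.049 without background correction, -0.0042 with exposure, -1.05 with the series table and -1.16 with sector. Its E6.5 against E5.5 value in males was -0.011 with exposure, -0.28 with the series table and -0.64 with sector, and in females -0.82 with the replicate block and -0.22 with 25 arrays less Female E6.5 replicate 2. Its E9.5 against E6.5 value in males was 0.0064 with exposure. Male against female it was -0.43 at E9.5 with the series table and 0.49 at E5.5 with sector, and its change of the sex difference was -0.13 and -0.30 with these.

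Leaving out each array gave, for male against female at E5.5, -0.78 to 0.18 (dre-miR-140*) and -0.82 to 0.011 (mmu-miR-140*), and at E9.5 -0.15 to 0.62 (rno-miR-140*). For E6.5 against E5.5 in males it gave -0.54 to 0.43, -0.54 to 0.33 and -0.39 to 1.29 for the dre, mmu and rno star-strand probes. For E9.5 against E6.5 in males it gave -0.52 to 0.30 (dre) and -0.031 to 0.52 (mmu), and for E9.5 against E5.5 in males -0.68 to 0.29, -0.34 to 0.49 and -0.81 to 0.86 in the same order.

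The strand difference without background correction had medians of 2.27 and 2.69 in males and females at E5.5, 2.08 and 3.73 at E6.5, and 2.02 and 1.70 at E9.5. With mmu-miR-140* as the star strand these were 1.52, 2.22, 1.43, 2.60, 1.88 and 1.60, and with rno-miR-140* 2.04, 2.88, 2.06, 3.21, 1.96 and 1.72, in that order. The male median was thus higher at E9.5 than at E5.5 with mmu-miR-140* and lower with dre-miR-140* or rno-miR-140*. All 18 of these medians lay at least the pooled SD within groups away from those first given. The mature-strand probes were limited by signal over background throughout.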
